A study of Homo sapiens with 6 samples.

Results

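The Wnt enhanceosome is the group of nuclear proteins that turns a Wnt signal into transcription, and 10 of its genes were followed here in DCIS.COM cells with and without knockdown of BCL9. The members were taken by name from a table of 58676 genes and are BCL9 and its paralog BCL9L, PYGO1 and PYGO2, CTNNB1, the TCF/LEF genes TCF7, TCF7L1, TCF7L2 and LEF1, and LDB1. In RNA sequencing, 3 NS control samples were set against 3 BCL9 KD samples, and a separate flask of cells gave each sample. Both groups are DCIS.COM, an established human breast cancer cell line of the basal type that models ductal carcinoma in situ, transduced with a lentiviral PLKO.1 vector that carries either a non-silencing sequence or an shRNA against BCL9. Only 1 shRNA was used, so an effect of BCL9 loss and an effect of that shRNA on other transcripts cannot be told apart. No Wnt ligand is named in the culture or treatment labels of these samples.

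In the textbook model, β-catenin, the product of CTNNB1, is held low by a destruction complex and enters the nucleus when Wnt stops its degradation. There it binds the DNA-bound TCF/LEF proteins, BCL9 or BCL9L docks on β-catenin, and a Pygopus protein docks on BCL9 and reads methylated histone tails. LDB1, with its SSBP partners, is a scaffold that links this assembly to the enhancer, and Groucho/TLE co-repressors occupy TCF/LEF when β-catenin is absent. In breast epithelium β-catenin also has a second place of work, the cadherin junctions at the cell surface.

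Promoter sequences show the DNA in front of the members that the results turn on. RefSeq promoters (GRCh38.p14) were found for 9 of the 10 members, and the 250 bases before the start site nearest to the start of the gene in the deposited table were searched on both strands. BCL9 is shown as the targeted gene, PYGO1 as the member whose BCL9 KD samples were all above its NS control samples, and LEF1 as a TCF/LEF member that Wnt is known to induce. Capitals mark CTTTG on either strand, the core letters that TCF/LEF proteins contact. The windows are chr1:147541251-147541500 (plus strand) for BCL9, chr15:55588972-55589221 (minus strand) for PYGO1 and chr4:108166302-108166551 (minus strand) for LEF1.
BCL9: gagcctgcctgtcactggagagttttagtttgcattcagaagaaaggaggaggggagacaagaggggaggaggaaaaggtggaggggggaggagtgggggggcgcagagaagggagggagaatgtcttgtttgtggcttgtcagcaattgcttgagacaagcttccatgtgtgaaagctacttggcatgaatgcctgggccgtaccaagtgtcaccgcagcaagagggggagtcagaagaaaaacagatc
PYGO1: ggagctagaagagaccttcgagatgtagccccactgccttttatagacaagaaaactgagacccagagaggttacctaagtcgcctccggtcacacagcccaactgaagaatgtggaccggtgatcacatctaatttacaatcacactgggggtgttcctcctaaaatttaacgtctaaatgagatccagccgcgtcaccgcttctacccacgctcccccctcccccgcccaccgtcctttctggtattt
LEF1: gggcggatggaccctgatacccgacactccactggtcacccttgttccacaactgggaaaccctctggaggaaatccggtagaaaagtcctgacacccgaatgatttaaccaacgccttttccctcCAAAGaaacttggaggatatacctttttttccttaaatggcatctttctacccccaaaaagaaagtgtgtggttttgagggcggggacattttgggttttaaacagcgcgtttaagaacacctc
Among the 9 promoters, CTTTG was found in 1, that of LEF1, 124 bases before its start, while 42.1% of 35116 RefSeq promoters of the same length hold it. RefSeq lists further start sites for some members, and over all 13 windows CTTTG was found in 4, the others being 2 of TCF7L2 and 1 of TCF7. The longer CTTTGA was in 0 of the 13 and in 11.2% of all promoters. The letters TTCNNNGAA, which STAT proteins bind, were also in 0 of the 13 and in 6.57% of all. These counts describe the letters in 250 bases only, and the enhancers of these genes were not searched.

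In each sample, the FPKM values (the read count of each gene scaled by gene length and sample depth) were turned back into reads. Of the nonzero values at lower counts, where this was checked, 100% were whole within a tolerance of 0.1. All values were then rounded to whole reads. The reads counted on genes ran from 15222452 to 22712638 in NS control and from 15665714 to 26949026 in BCL9 KD samples. Basal epithelial markers were high in all samples, with KRT5 at 398 ± 25.9 FPKM (SD, n = 3) in the NS control group and 413 ± 23.8 FPKM (SD, n = 3) in the BCL9 KD group. KRT17 (570 and 561 FPKM) and ITGB4 (472 and 436 FPKM) were of the same order. Of the 7 basal markers, 0 passed the limma test, as did 0 of the 5 luminal markers tested, and 2 basal markers and 1 luminal marker had an unadjusted p under 0.05, where 5.87% of all genes tested were called and 27.46% had such a p. All 5 luminal markers tested had a log2 fold change below 0 (44.55% of all genes tested), but GATA3 was at 0.05 with a correction for GC content. The BCL9 KD samples of KRT8 and KRT18 were all below their NS control samples, as for 16.4% of all genes tested. Of the 7 basal markers, 1 was likewise wholly lower and 1 wholly higher (17.8% of all genes tested) in BCL9 KD. The hormone receptor genes ESR1 and PGR, which define the luminal type, had at most 0.098 FPKM, while the simple-epithelium keratins KRT8 (293 and 244 FPKM) and KRT18 (177 and 150 FPKM) and the luminal factor GATA3 (8.09 and 7.84 FPKM) were present. Summed over the 8 markers of immune, stromal and endothelial cells, the level was 2.33 to 2.91 FPKM in NS control and 3.88 to 4.55 FPKM in BCL9 KD. Most of it came from PECAM1, an endothelial adhesion gene with 2.10 and 3.45 FPKM, higher by 0.61 on the log2 scale (limma adjusted p = 0.0477). COL1A1 was at 0.517 and 0.594 FPKM and PDGFRB at 0.0533 and 0.0842 FPKM, while the defining marker of blood cells, PTPRC, had 0 reads in 5 of the 6 samples. PECAM1 thus moved with the groups, and its part in the results was not tested. Quantile normalization called KRT8 (−0.40, limma adjusted p = 0.0329) and KRT18 (−0.37, limma adjusted p = 0.0346) as lower in BCL9 KD. The same scaling also lowered the basal markers KRT17, ITGB4 and KRT5, to −0.28, −0.27 and −0.06, none of them called. KRT8 and KRT18 were at −0.26 and −0.24 in the reported fit. They were at −0.17 and −0.14 with the GC correction, and at −0.16 and −0.13 without NS control replicate 1, not called in either.

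The shRNA target came first. BCL9 (ENSG00000116128) is the adaptor between β-catenin and Pygopus, on chromosome 1 from 147541412 to 147626216 (hg38, as all positions here), and no other gene in the table overlaps it. In NS control replicates 1, 2 and 3, BCL9 was at 6.25, 6.24 and 5.34 FPKM. In the BCL9 KD replicates it was at 2.86, 2.78 and 2.59 FPKM (values are given in replicate order throughout). All BCL9 KD samples were below all NS control samples, and 46.1% of the mean level was left. The remaining transcript rested on 260 to 481 reads a sample, so BCL9 mRNA was reduced and not absent. On the scale of log2(FPKM + 0.5), which makes changes of low genes smaller than their ratio, the fold change was −0.99 (95% CI −1.21 to −0.77, limma adjusted p = 0.00773). The adjusted p was 0.0636 without NS control replicate 2, 0.0589 without BCL9 KD replicate 2 and 0.0700 without BCL9 KD replicate 3, with log2 fold changes of −0.96, −0.999 and −0.95. In bulk RNA, fewer cells with BCL9 transcript and less transcript per cell cannot be told apart.

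BCL9 was the 1 member called among the 9 that could be tested, all but PYGO1, whose mean of 0.461 FPKM was under the 0.5 FPKM required. The comparison called 5.87% of the 13745 genes tested, 2.91% as lower and 2.96% as higher. Among the 8 tested members other than BCL9, 7 had a log2 fold change below 0 and 1 above it, with values from −0.30 to 0.03 and a median of −0.18. The median over all genes tested was 0.04, and 44.55% of them were below 0. The 3 BCL9 KD values lay wholly below the 3 NS control values for 4 of these 8 members, CTNNB1, TCF7L1, TCF7L2 and LDB1, and wholly above for 0 of them. Such separation was seen for 16.4% of all genes tested in the lower and 17.8% in the higher direction. An unadjusted p under 0.05 was reached by 2 of the 8, against 27.46% of all genes tested.

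**Figure D1:**
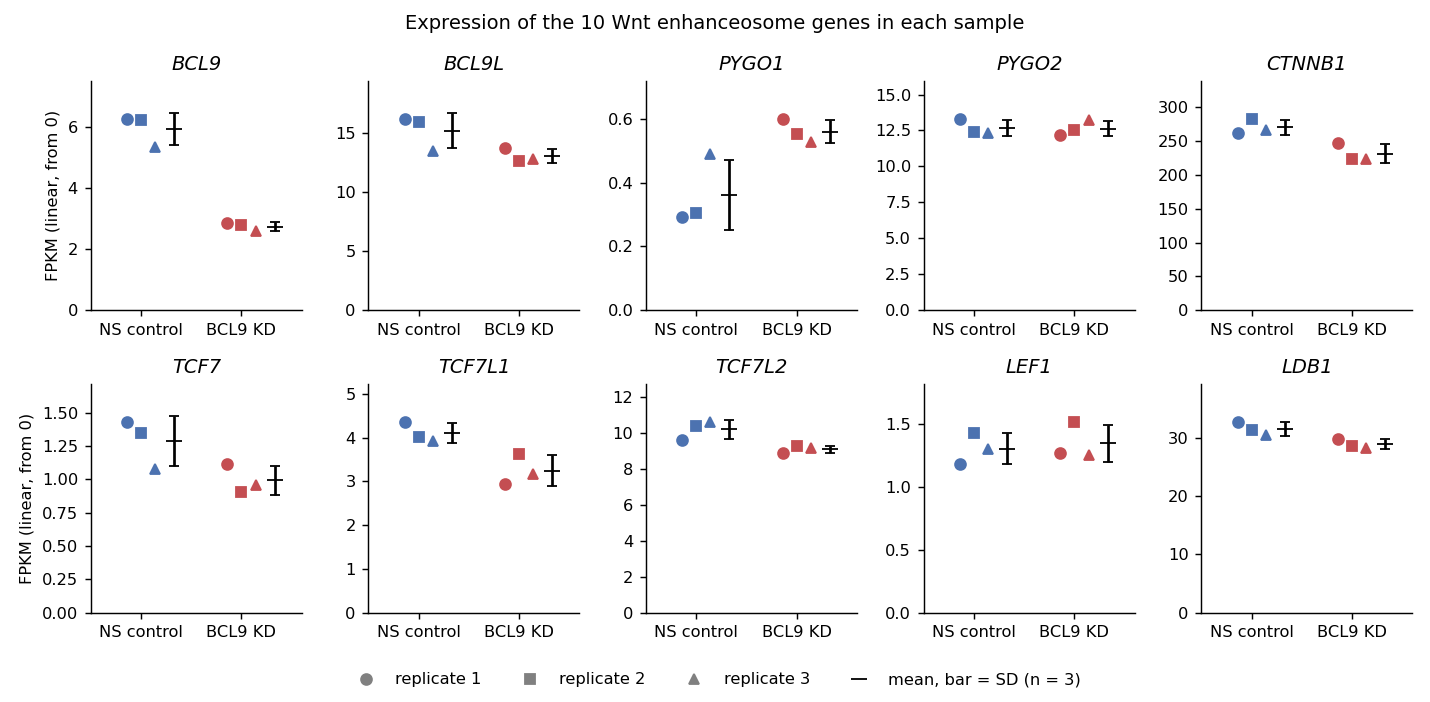
FPKM of the 10 members in each sample, on linear axes from 0, with NS control in blue, BCL9 KD in red, replicates as marker shapes, and black bars for mean and SD (n = 3). BCL9 drops from between 5.34 and 6.25 to between 2.59 and 2.86 FPKM, PYGO2 and LEF1 overlap between the groups, and PYGO1 lies higher in all 3 BCL9 KD samples.

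**Figure D2:**
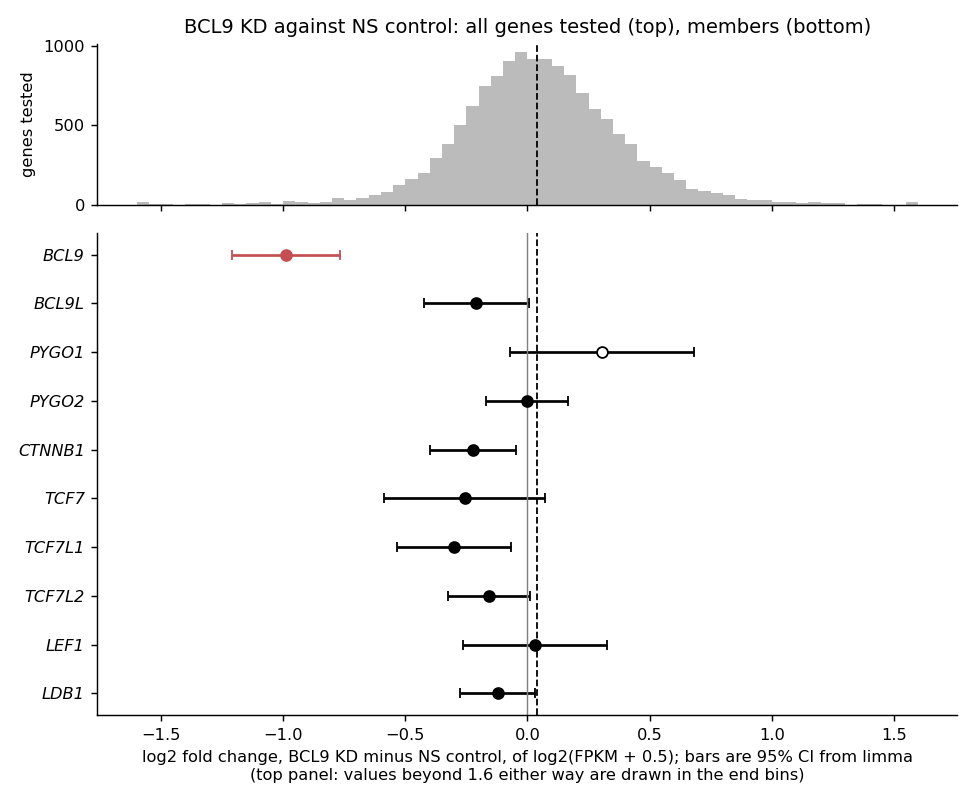
Log2 fold changes of the members with 95% CI from limma (bottom; PYGO1, open circle, from the test without a filter on FPKM) below a histogram of all 13745 genes tested (top), with the median of those genes, 0.04, as a dashed line. BCL9, in red, was called, and the intervals of CTNNB1 and TCF7L1 end below 0.

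BCL9L (ENSG00000186174, chromosome 11 from 118893875 to 118925608), the paralog that can dock on β-catenin in place of BCL9, was not higher in the BCL9 KD samples. It was at 16.2, 15.9 and 13.5 FPKM in NS control and at 13.7, 12.6 and 12.8 FPKM in BCL9 KD. The groups overlapped through NS control replicate 3, which was below BCL9 KD replicate 1. The log2 fold change was −0.21 (95% CI −0.42 to 0.01, limma adjusted p = 0.190), so the upper end of the interval, as a fold of FPKM + 0.5, is 1.004. BCL9L thus stayed the more abundant paralog in every sample, and it was 2.55 ± 0.0306 times (SD, n = 3) the level of BCL9 in NS control and 4.76 ± 0.212 times (SD, n = 3) in BCL9 KD. The log2 ratio of BCL9 to BCL9L was −1.37, −1.35 and −1.33 in NS control and −2.27, −2.18 and −2.31 in BCL9 KD, a difference of −0.90 that no factor applied to a whole sample can alter. The ratios did not overlap between the groups (exact permutation test, two-sided, p = 0.1, which is as small as 3 samples against 3 can give).

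Summed over both paralogs, the level was 22.4, 22.2 and 18.8 FPKM in NS control and 16.6, 15.4 and 15.4 FPKM in BCL9 KD. The sum in BCL9 KD was 74.6% of that in NS control, without overlap (exact permutation test, two-sided, p = 0.1, again the smallest possible). Of the sum, BCL9 made up 28.1% ± 0.243 (SD, n = 3) in NS control and 17.4% ± 0.647 (SD, n = 3) in BCL9 KD. The sum counts both genes as equal and says nothing about their proteins, which were not measured here.

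**Figure D3:**
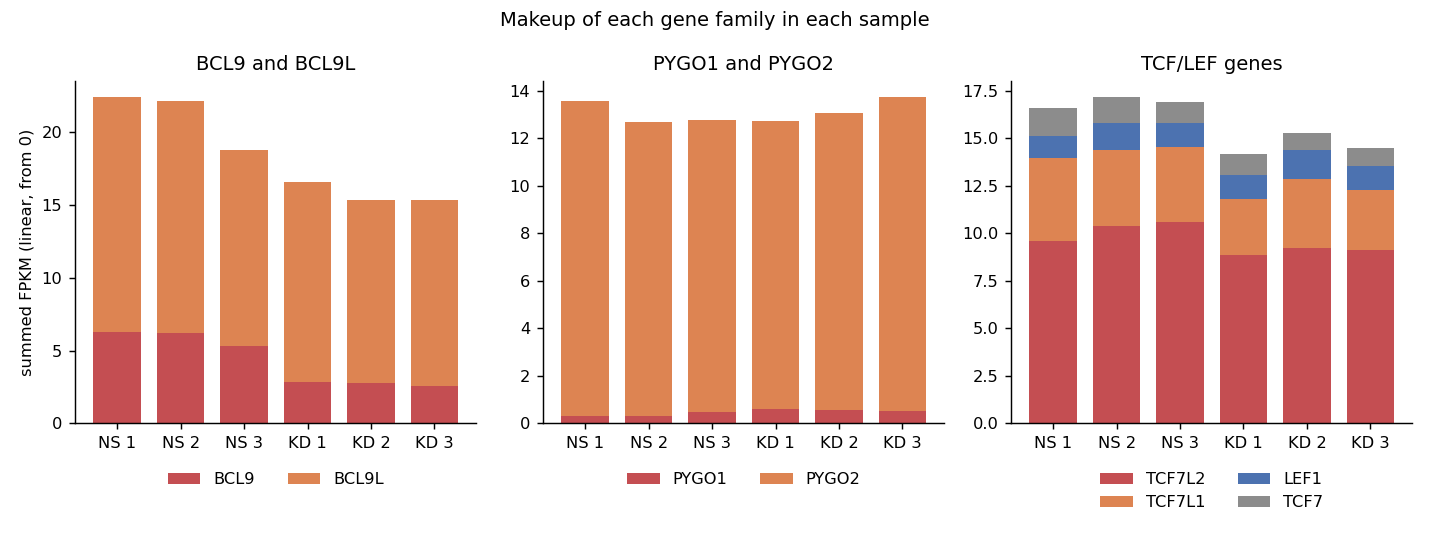
Stacked FPKM of the paralogs of each family in NS control (NS) and BCL9 KD (KD) replicates 1 to 3, on linear axes from 0. The BCL9 and BCL9L sum is 18.8 to 22.4 FPKM in NS control and 15.4 to 16.6 FPKM in BCL9 KD, while the PYGO bars lie between 12.7 and 13.7 FPKM and the TCF/LEF bars are lower in BCL9 KD, with TCF7L2 the major part in all.

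The Pygopus proteins are recruited by BCL9 and BCL9L. PYGO2 (ENSG00000163348, chromosome 1 from 154957026 to 154963853), the form known for its part in mammary progenitor cells, made up 97.2% ± 0.903 (SD, n = 3) of Pygopus transcript in NS control and 95.7% ± 0.429 (SD, n = 3) in BCL9 KD. PYGO2 was at 13.3, 12.4 and 12.3 FPKM in NS control and at 12.2, 12.5 and 13.2 FPKM in BCL9 KD. The groups overlapped, and the log2 fold change was −0.003 (95% CI −0.17 to 0.16, limma adjusted p = 0.979). As a fold of FPKM + 0.5, the interval runs from 0.888 to 1.12. With a correction for GC content, PYGO2 was on the other side of 0, at 0.09. SHC1, on the same strand, overlaps PYGO2 by 1556 bases and had 6859 to 11934 reads a sample, and how reads in the overlap were assigned is not stated.

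PYGO1 (ENSG00000171016, chromosome 15 from 55538890 to 55588947) was the member with the lowest level, and its BCL9 KD samples were all above its NS control samples. It had 0.292, 0.305 and 0.489 FPKM in NS control and 0.599, 0.553 and 0.527 FPKM in BCL9 KD, resting on 57, 53 and 64 reads and on 91, 128 and 71 reads. Among the NS control samples, replicate 3 was far nearer to the BCL9 KD values than the others. The mean in BCL9 KD was 1.55 times that in NS control. Such separation upward was seen for 10.6% of the 30731 genes with any read and for 17.8% of the 13745 genes tested. Without a filter on FPKM, the log2 fold change was 0.30 (95% CI −0.07 to 0.68, limma adjusted p = 0.429), and 142 genes were called. With voom from limma on recovered reads of the 14560 genes with a mean of at least 10 reads, an analysis chosen after seeing the data, it was 0.71 (95% CI 0.22 to 1.196, limma adjusted p = 0.0693), and 1420 genes were called. PYGO1 passed the threshold in neither. The difference of 0.198 FPKM is small beside the sum of both Pygopus genes, which was 13.6, 12.7 and 12.8 FPKM in NS control and 12.8, 13.1 and 13.7 FPKM in BCL9 KD (two-sided exact permutation test, p = 0.6).

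CTNNB1 (ENSG00000168036, chromosome 3 from 41194837 to 41260096), which encodes β-catenin, was the most abundant member. It was at 263, 283 and 266 FPKM in NS control and at 248, 224 and 224 FPKM in BCL9 KD, with all BCL9 KD samples below all NS control samples. The log2 fold change was −0.22 (95% CI −0.40 to −0.05) and missed the threshold after adjustment (limma adjusted p = 0.112). Over the other ways of processing, the adjusted p ran from 0.0535, with a correction for GC content, to 0.362, and the log2 fold change from −0.41 to −0.19. CTNNB1 transcript was 12.9 ± 1.22 times (SD, n = 3) the BCL9 and BCL9L sum in NS control and 14.7 ± 0.209 times (SD, n = 3) in BCL9 KD. β-catenin is regulated mainly as a protein, through its degradation, which transcript levels do not report.

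The TCF/LEF genes encode the DNA-binding part of the complex. TCF7L2 (ENSG00000148737, chromosome 10 from 112950250 to 113167678), which encodes TCF4, made up 60.3% ± 2.38 (SD, n = 3) of their summed FPKM in NS control and 62.0% ± 1.30 (SD, n = 3) in BCL9 KD. TCF7L2 was at 9.60, 10.4 and 10.6 FPKM in NS control and at 8.85, 9.25 and 9.12 FPKM in BCL9 KD, without overlap. Its log2 fold change was −0.16 (95% CI −0.33 to 0.01, limma adjusted p = 0.207). TCF7L1 (ENSG00000152284, chromosome 2 from 85133410 to 85310388), which encodes TCF3, mostly a repressor of Wnt targets, was at 4.36, 4.01 and 3.93 FPKM in NS control and at 2.94, 3.62 and 3.17 FPKM in BCL9 KD. These values did not overlap either, and the log2 fold change was −0.30 (95% CI −0.54 to −0.07, limma adjusted p = 0.111).

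TCF7 and LEF1, both known as Wnt-induced genes themselves, were at low levels. TCF7 (ENSG00000081059, chromosome 5 from 134114711 to 134151865) was at 1.43, 1.35 and 1.08 FPKM in NS control and at 1.11, 0.903 and 0.958 FPKM in BCL9 KD. The groups overlapped through NS control replicate 3, and the log2 fold change was −0.26 (95% CI −0.59 to 0.07, limma adjusted p = 0.272). It was −0.17 with the GC correction and −0.40 with voom on the recovered reads (limma adjusted p = 0.421 and 0.115). SKP1, on the opposite strand, overlaps TCF7 by 2931 bases and had 1979 to 4378 reads a sample, and without stated strand the reads of both in the overlap cannot be told apart. LEF1 (ENSG00000138795, chromosome 4 from 108047545 to 108168956) was at 1.18, 1.43 and 1.30 FPKM in NS control and at 1.27, 1.52 and 1.25 FPKM in BCL9 KD, on 105 to 219 reads a sample. LEF1 overlapped between the groups, with a log2 fold change of 0.03 (95% CI −0.26 to 0.33, limma adjusted p = 0.889) that was −0.04 with quantile normalization. Both intervals are wide.

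Summed, the TCF/LEF genes had 16.6, 17.2 and 16.9 FPKM in NS control and 14.2, 15.3 and 14.5 FPKM in BCL9 KD, which is 86.8% of the NS control mean, without overlap (exact permutation test, two-sided, p = 0.1, also the smallest possible). LEF1 took a larger share of that sum in every BCL9 KD sample, 8.63% to 9.91% against 7.14% to 8.33%, while its own level overlapped between the groups. The shares of TCF7, TCF7L1 and TCF7L2 overlapped between the groups. The ratio of CTNNB1 to the TCF/LEF sum was 16.02 ± 0.393 (SD, n = 3) in NS control and 15.9 ± 1.46 (SD, n = 3) in BCL9 KD (two-sided exact permutation test, p = 0.8).

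LDB1 (ENSG00000198728, chromosome 10 from 102107560 to 102120453), the scaffold of the enhanceosome, was the second most abundant member. LDB1 was at 32.7, 31.3 and 30.4 FPKM in NS control and at 29.8, 28.6 and 28.2 FPKM in BCL9 KD. The groups did not overlap, by a margin of 0.608 FPKM between the nearest samples, and the log2 fold change was −0.12 (95% CI −0.27 to 0.03, limma adjusted p = 0.261). A correction for GC content brought it to −0.03. The same correction took BCL9L from −0.21 to −0.13 and left CTNNB1 at −0.23.

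Levels per length put the members in nearly one order in both groups. In NS control the order was CTNNB1, LDB1, BCL9L, PYGO2, TCF7L2, BCL9, TCF7L1, LEF1, TCF7 and PYGO1, from a mean of 270.5 to 0.362 FPKM, and LEF1 and TCF7 were the only neighbours whose samples overlapped. In BCL9 KD the order was the same but for BCL9, which stood below TCF7L1 in all samples (2.59 to 2.86 against 2.94 to 3.62 FPKM). There, BCL9L and PYGO2 were the only neighbours that overlapped. No stretch of 40 bases was shared between annotated transcripts of any of the 45 pairs of members.

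**Figure D4:**
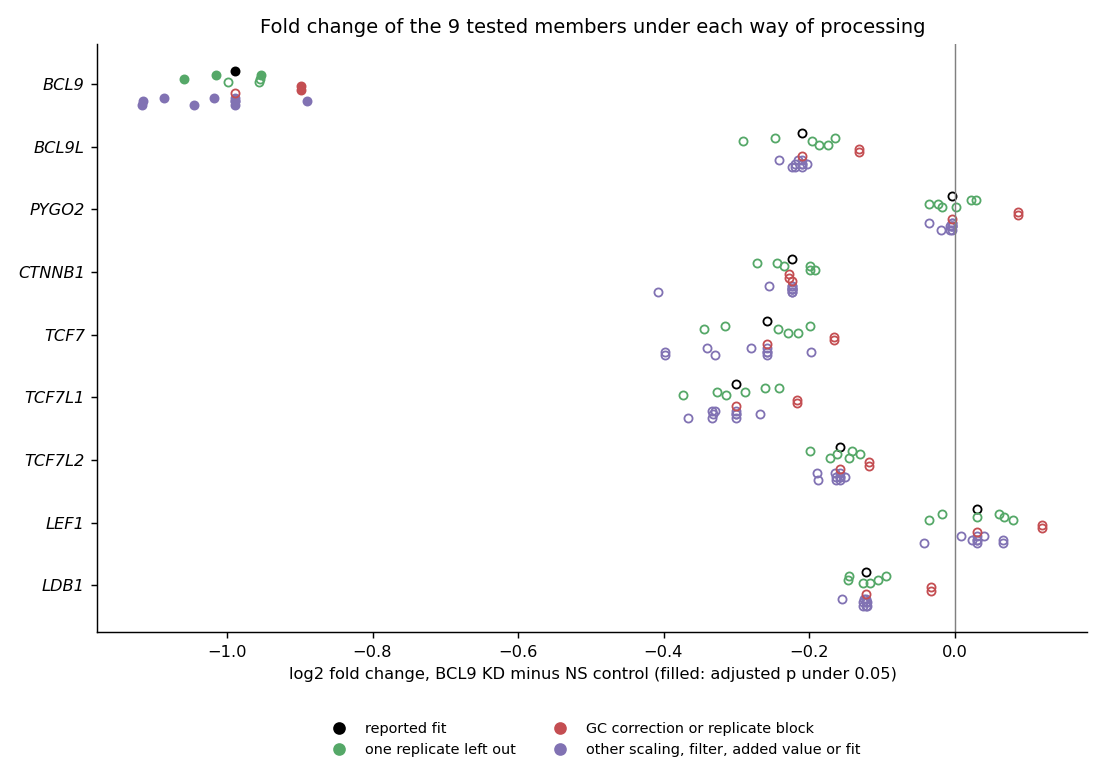
Log2 fold change of the 9 tested members under each way of processing, filled where the limma adjusted p is under 0.05. BCL9 stays between −1.12 and −0.89, while BCL9L, CTNNB1, TCF7, TCF7L1, TCF7L2 and LDB1 stay below 0 and unfilled, and PYGO2 and LEF1 cross 0.

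The 5 genes whose centred log2(FPKM + 0.5) over the 6 samples was nearest to that of BCL9 were NAV1, DHTKD1, TFCP2L1, KIAA1210 and FYCO1, with a root mean square difference of 0.0522 to 0.0809. NAV1, a cytoskeletal protein, was at 2.20, 2.26 and 2.05 FPKM in NS control and at 0.947, 0.798 and 0.793 FPKM in BCL9 KD. DHTKD1, a mitochondrial enzyme of lysine breakdown, had 25.4, 25.6 and 24.6 FPKM in NS control and 13.4, 12.3 and 12.3 FPKM in BCL9 KD. TFCP2L1, a transcription factor of epithelia, had 19.8, 21.2 and 18.3 FPKM in NS control and 11.1, 9.21 and 9.72 FPKM in BCL9 KD. KIAA1210 went from a mean of 2.43 to 0.887 FPKM, and FYCO1, an adaptor for moving autophagosomes, from 12.2 to 5.46 FPKM. Among the 8 other members tested, the nearest to BCL9 was TCF7L1 with a difference of 0.359, in place 1202 among all other genes tested. With 3 samples a group, this likeness describes mainly the step between the groups.

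Genes that work with the enhanceosome were described from lists chosen with earlier results of these data known. Their counts stand beside those of all genes tested, of which 5.87% were called, 44.55% had a log2 fold change below 0 and 27.46% an unadjusted p under 0.05, with a median of 0.04. Of 11 LDB1 partner genes, 5 were tested and 1 was called, LMO4, which encodes a LIM-only protein that binds LDB1 in breast epithelium. LMO4 was at 11.1, 10.9 and 11.5 FPKM in NS control and at 14.5, 14.9 and 14.8 FPKM in BCL9 KD, and it rose by 0.39 on the log2 scale (95% CI 0.23 to 0.54, limma adjusted p = 0.0287). The SSBP partners that stabilise LDB1 were not called, with SSBP3 at 24.2 and 24.6 FPKM (limma adjusted p = 0.800) and SSBP4 at 14.7 and 13.2 FPKM (limma adjusted p = 0.308). SSBP2 was low, at 0.506 and 0.736 FPKM, with all BCL9 KD samples above all NS control samples and a log2 fold change of 0.30 (95% CI −0.06 to 0.66, limma adjusted p = 0.251). That value was 0.08 with the GC correction, 0.47 with 0.1 FPKM added and 0.53 with voom, where it also missed the threshold (limma adjusted p = 0.0579). SSBP2 is named outside the rule, after its values were seen. The median of the 5 was 0.03.

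Of 13 co-repressors and nuclear inhibitors, 11 were tested, with 1 called, 9 below and 2 above 0, and a median of −0.08. CTNNBIP1 and AES, below 0 here, were above 0 with the GC correction (0.008 and 0.08) and without NS control replicate 1 (0.03 and 0.05). The called gene was TLE3, a Groucho co-repressor that sits on TCF/LEF proteins. TLE3 was at 8.18, 7.91 and 7.24 FPKM in NS control and at 6.001, 5.23 and 4.89 FPKM in BCL9 KD, and it fell by 0.50 on the log2 scale (95% CI −0.73 to −0.27, limma adjusted p = 0.0387). CTNNBIP1, an inhibitor that keeps TCF off β-catenin, was the most abundant at 37.5 and 35.1 FPKM (limma adjusted p = 0.630). AES, a short Groucho protein, had 27.2 and 26.998 FPKM (limma adjusted p = 0.954), and CHD8, a chromatin remodeller that binds β-catenin, had 19.6 and 14.6 FPKM without overlap (log2 fold change −0.41, limma adjusted p = 0.0657). CHD8 passed with voom (limma adjusted p = 0.0404) and without NS control replicate 3 (limma adjusted p = 0.0377), settings that called 1403 and 1729 genes across the table. CHD8 missed with no filter (limma adjusted p = 0.155), with the replicate block (0.116) and without NS control replicate 1 (0.101) or 2 (0.210).

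All 13 nuclear co-activators were tested and 0 were called by limma, with 5 at an unadjusted p under 0.05 (27.46% of all genes tested), a median of −0.14 and 8 of 13 below 0. The most abundant were PAF1, a subunit of the elongation complex that binds β-catenin, at 39.1 and 36.2 FPKM (limma adjusted p = 0.419), SMARCA4, the motor of a chromatin remodelling complex, at 31.5 and 24.9 FPKM (limma adjusted p = 0.106), and RUVBL1, an ATPase, at 24.6 and 26.4 FPKM (limma adjusted p = 0.503). SMARCA4 passed without NS control replicate 3 (limma adjusted p = 0.0383). SMARCA4 missed with voom (limma adjusted p = 0.0749), with no filter (0.229) and without NS control replicate 2 (0.268). With voom on the recovered reads, 0 of the members other than BCL9 were called, and 1403 genes were called in all.

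At the cell junctions, 7 of 8 partners of β-catenin were tested, all 7 below 0 (44.55% of all genes tested) with a median of −0.16, and 1 was called. VCL, which encodes vinculin, a link between the junction and actin, was at 48.9, 52.2 and 46.3 FPKM in NS control and at 33.2, 30.0 and 30.3 FPKM in BCL9 KD. VCL fell by 0.65 on the log2 scale (95% CI −0.83 to −0.47, limma adjusted p = 0.0122). The cadherin genes that bind β-catenin directly were not called. CDH1, E-cadherin, had 49.7 and 44.3 FPKM (log2 fold change −0.16, limma adjusted p = 0.173) and CDH3, P-cadherin, 55.7 and 55.1 FPKM (limma adjusted p = 0.902). CTNNA1, α-catenin, was at 88.0 and 85.0 FPKM (limma adjusted p = 0.741). With a correction for GC content, CDH1 was at −0.09, while CDH3 and CTNNA1 were above 0, at 0.08 and 0.02.

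Of 12 Wnt feedback genes, the usual readout of the complex, 5 were tested and 0 were called by limma, with 2 below and 3 above 0. Their median was 0.06, and the 2 at an unadjusted p under 0.05, 1 of them DKK1, were wholly higher in BCL9 KD. Such separation upward was seen for 17.8% of all genes tested. AXIN2, the classic target, named here outside the rule for named genes after its values were seen, had 1 to 4 reads in each NS control and BCL9 KD sample. At this depth a fall of AXIN2 was not detectable. ZNRF3, a ubiquitin ligase that removes Wnt receptors, had 5.02 and 4.32 FPKM (log2 fold change −0.20, limma adjusted p = 0.236), and its relative RNF43 had 1.51 and 1.26 FPKM (log2 fold change −0.19, limma adjusted p = 0.340). The GC correction brought ZNRF3 to −0.11 and RNF43 to −0.10, and RNF43 was at −0.12 without BCL9 KD replicate 3. DKK1, a secreted Wnt inhibitor, was at 1.06, 2.06 and 2.17 FPKM in NS control and at 2.85, 3.43 and 3.36 FPKM in BCL9 KD. The DKK1 groups did not overlap, and the log2 fold change of 0.75 missed the threshold (95% CI 0.24 to 1.26, limma adjusted p = 0.0823), while voom gave 0.98 (limma adjusted p = 0.0463). DKK1 also missed with no filter (limma adjusted p = 0.216) and without NS control replicate 2 (0.172).

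Among 18 other Wnt targets, 15 were tested, 10 below and 5 above 0 with a median of −0.09, and 1 was called. CCND1, which encodes cyclin D1 and has other regulators besides Wnt, was at 96.5, 96.3 and 81.3 FPKM in NS control and at 67.0, 61.6 and 60.0 FPKM in BCL9 KD, and it fell by 0.53 on the log2 scale (limma adjusted p = 0.0301). SOX9 at 133 and 130.1 FPKM (limma adjusted p = 0.850) and CD44 at 98.6 and 92.5 FPKM (limma adjusted p = 0.418) were not called. None of the 5 calls in the lists, LMO4, TLE3, VCL, CCND1 and PECAM1, held when NS control replicate 2, BCL9 KD replicate 2 or BCL9 KD replicate 3 was left out. Without these, the limma adjusted p of LMO4 was 0.136, 0.160 and 0.159, that of TLE3 0.153, 0.179 and 0.180, and that of VCL 0.0810, 0.0980 and 0.103. For CCND1 it was 0.136, 0.154 and 0.158, and for PECAM1 0.145, 0.163 and 0.186. Their log2 fold changes without these samples stayed between 0.37 and 0.38 for LMO4, −0.49 and −0.44 for TLE3, −0.63 and −0.60 for VCL, −0.52 and −0.49 for CCND1, and 0.63 and 0.67 for PECAM1. The calls of TLE3 and PECAM1 were also lost without NS control replicate 1 (0.0559 and 0.0540), and that of PECAM1 without BCL9 KD replicate 1 (0.0930). VCL was called under every change of filter, added value and scaling, and with the GC correction. Without the trend in limma, the adjusted p was 0.0522 for LMO4, 0.0570 for TLE3, 0.0538 for CCND1 and 0.0632 for PECAM1. With no filter it was 0.0941 for TLE3, 0.0837 for CCND1 and 0.127 for PECAM1, and PECAM1 also missed with median-of-ratios scaling (0.0595) and quantile normalization (0.0863).

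**Figure D5:**
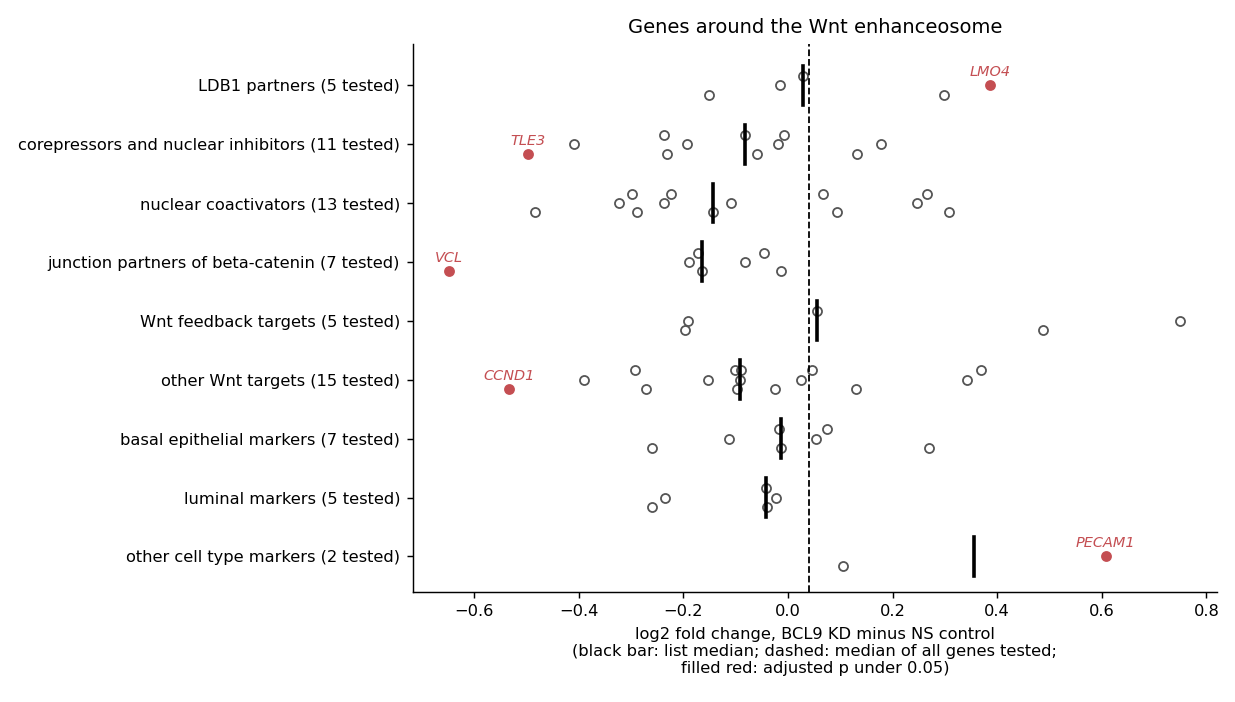
Log2 fold changes of the tested genes in each list, with the list median as a black bar, called genes filled in red and the median of all genes tested, 0.04, as a dashed line. LMO4 and PECAM1 stand above the dashed line, and TLE3, VCL and CCND1 below it.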

How the data were processed

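RNA sequencing libraries of 3 NS control and 3 BCL9 KD samples of DCIS.COM cells were analysed, grouped by their labels. The authors mapped paired-end reads with STAR and counted reads on genes with HTSeq 0.6.1, on hg38 per the submitters' processing notes. They deposited FPKM values, each the count of a gene scaled by its length and by the depth. The table also holds the gene length in other units (bases) as deposited, which gave back the reads; 0 columns of per-sample values were left unused.
Genes with a mean of at least 0.5 FPKM were tested with limma 3.58.1 (R 4.3.3, empirical Bayes with trend) on log2(FPKM + 0.5) with Benjamini-Hochberg adjustment, and called at an adjusted p under 0.05. The fit was run on simulated counts of independent samples without batch or GC effects, so that run says nothing about such effects. Intervals are 95% and unadjusted. Replicates of a group had Pearson correlations of 0.964 to 0.987 on the log2 scale. Each flask was 1 replicate. Sums and ratios were compared by exact permutation (scipy 1.17.1). The genes named are all 10 members, each called gene and the 3 of highest mean FPKM in every other list, and the 5 genes most like BCL9. AXIN2, SSBP2, ESR1, PGR and PTPRC are exceptions to this rule, picked once their values had been seen, and SHC1 and SKP1 are named because they overlap members. The members and lists were chosen with earlier results of these data known. The library kit is not stated to keep strand. The methods speak of 2 biological replicates per condition, while labels and table hold 3. Alternatives were other added values (1 and 0.1 FPKM), filters (a mean of 1 FPKM, or none), scalings, limma settings, voom on recovered reads, a GC correction (known for 98.8% of genes), a replicate block and leaving out each sample. The sequence of the shRNA and proteins were not used here.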

Additional observations from a re-analysis of the deposited data

How the results depend on the processing

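BCL9 was lower in all 19 other settings, and its adjusted p was under 0.05 in 15 of them. Without 1 replicate, its log2 fold change ran from −1.06 to −0.95, the members called from 0 to 1 and the genes called across the table from 5 (without BCL9 KD replicate 3) to 1729 (without NS control replicate 3), against 807. The count of genes called was 142 with no filter, 332 with no trend, 1403 with voom on recovered reads and 1732 with the GC correction. With the replicate block, 0 genes were called by limma and 0 members (3235 genes and 2 members at an unadjusted p under 0.05), with BCL9 standing at −0.99 with a limma adjusted p of 0.0656. The block and the GC correction together gave 372 genes, BCL9 (−0.90) among them. Same-numbered samples had deviations with correlations of −0.147, −0.0884 and −0.0029, against −0.0988 to 0.1595 for samples of different number. Deviations were taken from the mean of each group of 3, so these values cannot settle whether the samples were paired. The causes of these shifts were not tested.
The log2 ratio of BCL9 to BCL9L differed by −0.93 to −0.87 and their sum by −6.52 to −4.72 FPKM without 1 replicate. In reads per 1000000 reads counted, not divided by length, the sum differed by −43.1, to 78.1% of NS control, a change of unit.
Among the 9 members other than BCL9, 153 other values gave 0 calls, and the direction turned for PYGO2 and LEF1. With the GC correction, alone or with the replicate block, PYGO2 was at 0.0876, CTNNBIP1 at 0.00789, AES at 0.0816, CTNNA1 at 0.0240, CDH3 at 0.0765, SOX9 at 0.0635, KRT17 at 0.0726 and GATA3 at 0.0515. With quantile normalization LEF1 was at −0.0425 and KRT5 at −0.0553, and with median-of-ratios scaling SSBP3 was at −0.00386. Without 1 replicate, PYGO2 ran from −0.0348 to 0.0300, LEF1 from −0.0344 to 0.0810, CTNNBIP1 from −0.141 to 0.0312, AES from −0.0430 to 0.0514, CTNNA1 from −0.120 to 0.0151, CDH3 from −0.0347 to 0.0233, SOX9 from −0.0846 to 0.0101, KRT17 from −0.0674 to 0.0801 and GATA3 from −0.0930 to 0.0573. None of these values was called. Depth limits AXIN2, with at most 4 reads a sample, and PYGO1. Reads carried no molecular identifiers, so error beyond counting remains.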
